A study of Mus musculus with 6 samples.

Results

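The 48 mouse genes described here encode the proteasome and its helpers. They are every gene of a table of 34745 genes whose symbol reads Psma to Psmg followed by a number, with Ensembl identifiers matched to symbols of GENCODE M21. By these symbols 19 encode subunits of the 20S core (Psma and Psmb), 20 belong to the 19S regulatory particle (Psmc and Psmd), and 9 encode activators, an inhibitor or 20S assembly chaperones (Psme, Psmf and Psmg). RNA of isolated pancreatic islets from C57BL/6 mice aged 8 weeks was sequenced in 6 libraries, 2 per group. KO DNMT3A libraries came from Beta RapKO islets expressing added Dnmt3a, a DNA methyltransferase gene carried by a lentivirus according to the series design. KO libraries came from Beta RapKO islets, in which Rptor, the gene for the mTORC1 subunit Raptor, is lost from beta cells. WT libraries came from wild-type islets. GFP stands in the deposited column names of KO and WT, unexplained by any label. All column names also end in a number that no label explains. KO DNMT3A replicate 2, KO replicate 2 and WT replicate 1 share the same number. The labels do not name what drives the deletion, how many mice gave each library, or whether the libraries of a group are separate mice, so p-values reflect library-to-library spread, which may be technical. Islets also hold alpha, delta, vascular, immune and stromal cells that keep Rptor, and in such bulk RNA fewer cells of a type and less RNA per cell cannot be told apart.

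The proteasome degrades proteins tagged with ubiquitin. Its 20S core is a barrel of stacked alpha and beta rings, in which the beta subunits beta 1, beta 2 and beta 5 cut peptide bonds, and the 19S particle recognises, unfolds and feeds in the substrate. Immune cells and cells exposed to interferon exchange the cutting subunits for immunoproteasome forms and add the PA28 activator, which alters the peptides offered to MHC class I. Beta cells make large amounts of secretory protein and dispose of misfolded proinsulin through this machinery.

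The promoters of 4 genes for catalytic subunits are shown because the balance between the constitutive and the immunoproteasome forms is a main readout below. Each is a RefSeq window on GRCm38.p6 from 250 bases before to 50 bases after the transcription start. Psmb5 lies at chr14:54617946-54618245, minus strand, Psmb6 at chr11:70525107-70525406, plus strand, Psmb8 at chr17:34197945-34198244, plus strand, and Psmb9 at chr17:34187281-34187580, minus strand. Capitals mark the matches to 3 motifs searched on both strands. The windows of Psmb5, Psmb6 and Psmb9 hold 1 match each, and that of Psmb8 holds none. The window of the immunoproteasome gene Psmb10, which is not printed, also holds none.
Psmb5: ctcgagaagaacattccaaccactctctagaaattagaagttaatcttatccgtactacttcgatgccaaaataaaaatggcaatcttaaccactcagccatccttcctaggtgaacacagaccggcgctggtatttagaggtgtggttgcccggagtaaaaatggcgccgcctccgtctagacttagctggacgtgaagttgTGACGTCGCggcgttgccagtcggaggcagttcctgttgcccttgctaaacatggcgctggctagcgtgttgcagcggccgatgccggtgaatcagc
Psmb6: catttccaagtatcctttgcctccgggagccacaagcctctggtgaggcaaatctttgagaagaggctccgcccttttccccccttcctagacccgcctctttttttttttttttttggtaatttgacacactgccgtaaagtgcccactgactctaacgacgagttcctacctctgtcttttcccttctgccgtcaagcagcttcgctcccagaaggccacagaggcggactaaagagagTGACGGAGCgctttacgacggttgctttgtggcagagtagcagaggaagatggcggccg
Psmb8: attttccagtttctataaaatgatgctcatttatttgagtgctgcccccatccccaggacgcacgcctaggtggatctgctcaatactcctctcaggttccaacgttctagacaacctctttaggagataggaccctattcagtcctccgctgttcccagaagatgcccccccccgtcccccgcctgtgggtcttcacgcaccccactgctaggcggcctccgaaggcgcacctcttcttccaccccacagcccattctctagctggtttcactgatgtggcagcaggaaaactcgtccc
Psmb9: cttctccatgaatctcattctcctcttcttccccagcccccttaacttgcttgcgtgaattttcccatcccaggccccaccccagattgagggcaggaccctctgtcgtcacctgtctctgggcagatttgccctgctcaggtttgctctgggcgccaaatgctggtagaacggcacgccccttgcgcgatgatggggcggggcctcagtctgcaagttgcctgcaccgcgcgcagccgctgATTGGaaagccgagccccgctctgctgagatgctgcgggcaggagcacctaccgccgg
The constitutive genes Psmb5 and Psmb6 each hold TGACNNNGC, the core letters of the antioxidant response element, to which the proteasome regulator NFE2L1 can bind. The immunoproteasome gene Psmb9 holds CCAAT in reverse. The third motif, GAAA and GAAA with 2 bases of any kind between, holds letters of the interferon-stimulated response element and has no match in these 4 windows. Of the 48 genes 40 matched the promoter table; Psma8, Psmb1, Psmb2, Psmb7, Psmc3, Psmd3, Psmd7 and Psmg2 did not. TGACNNNGC occurred in 6 of the 40 genes (15%) and in 14% of all 27025 genes of the table. CCAAT occurred in 14 of 40 (35%) against 41.1%, and the GAAA pair in 5 of 40 (12.5%) against 3.99%. The GAAA pair was present in 1 of the 5 immunoproteasome and PA28 genes and in 4 of the other 35 genes. A match describes the letters in the window and does not show binding.

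The values are the authors' FPKM, fragments per length of transcript scaled to the total of the library, so levels of different genes can be compared per length. No counts accompany them, and the step size of genes with a single annotated transcript implied 1920991 and 1117581 fragments in KO DNMT3A, 1426335 and 780504 in KO, and 244636 and 973267 in WT. If the longest transcript of each gene is assumed, the 46 measured proteasome genes rested on a median of 75.5 and 27.8 fragments in KO DNMT3A, 49.7 and 17.2 in KO, and 8.58 and 30.4 in WT. In WT replicate 1 fewer than 10 fragments lay behind 28 of the 46 genes. Ins1 and Ins2 made up 16.5% and 23.6% of the summed FPKM in KO DNMT3A islets, 30.5% and 0.109% in KO, and 0.170% and 23.9% in WT, so KO replicate 2 and WT replicate 1 almost lacked the defining beta cell transcripts. Mitochondrially encoded genes took 50.9% and 44.8% in these insulin-poor libraries and 16.5% to 26.5% in the others. Rptor reached 0.714 and 1.93 FPKM under the KO DNMT3A label, 0.378 and 1.51 FPKM under the KO label, and 0.800 and 1.06 FPKM under the WT label, and Dnmt3a was 3.62 and 3.8, 3.19 and 2.5, and 2.94 and 4.43 FPKM in the same order. The Rptor values overlapped and KO replicate 2 lay above both WT libraries, so they do not bear out the KO label; every direction below is between libraries named by their labels.

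All proteasome genes except the tissue-restricted ones were expressed in islets. A gene counted as measured when it reached 1 FPKM in at least 2 libraries, which 46 of the 48 did. The exceptions were Psma8, an alpha subunit of testis proteasomes, listed at 1.23 FPKM in KO DNMT3A replicate 1 and at 0 elsewhere, and Psmb11, the thymus beta 5 subunit, which stayed at or under 0.242 FPKM. The subunits share a complex, but their transcript levels per length spread widely. Mean FPKM over the 6 libraries ran from 11.9 for Psma3 to 91.1 for Psma2 among the 7 alpha genes, and from 13.2 for Psmb7 to 93.2 for Psmb1 among the 7 constitutive beta genes. It ran from 16.8 for Psmc2 to 67.1 for Psmc5 among the 6 ATPase genes of the 19S base, whose products unfold substrates. The widest range was among the 11 non-ATPase 19S genes, from 5.72 for Psmd11 to 131 for Psmd7. Psmd7 encodes Rpn8, the partner of the deubiquitinase Rpn11, whose gene Psmd14 averaged 11.4 FPKM.

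The assembly and accessory genes averaged between 2.72 FPKM for Psmd9 and 19.5 FPKM for Psmg4, a range that overlaps that of the structural subunits. The 19S chaperone genes Psmd9, Psmd5 and Psmd10 averaged 2.72, 3.51 and 7.64 FPKM, and Psmf1, which encodes the proteasome inhibitor PI31, averaged 2.96 FPKM. Among the activators the highest was Psme2 (PA28 beta) at 11.1 FPKM and the lowest Psme3 (PA28 gamma, the nuclear form) at 4.77 FPKM. Psmg4 and Psmg3, 2 of the 4 chaperone genes for alpha ring assembly, averaged 19.5 and 2.98 FPKM.

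Levels of proteasome genes differed between the replicates of KO DNMT3A and of KO. The median level of the 17 measured 20S genes was 37.7 and 21.6 FPKM in KO DNMT3A islets, 36.4 and 19.1 FPKM in KO islets, and 32.6 and 29.0 FPKM in WT islets. The median of the 20 genes of the 19S particle was 23.4 and 12.1 FPKM in KO DNMT3A islets, 19.4 and 12.8 FPKM in KO islets, and 15.0 and 16.5 FPKM in WT islets. In both classes replicate 1 of KO DNMT3A and replicate 1 of KO were high, replicate 2 of each was low, and the WT libraries lay in between, so no pair of groups was apart.

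**Figure D1:**
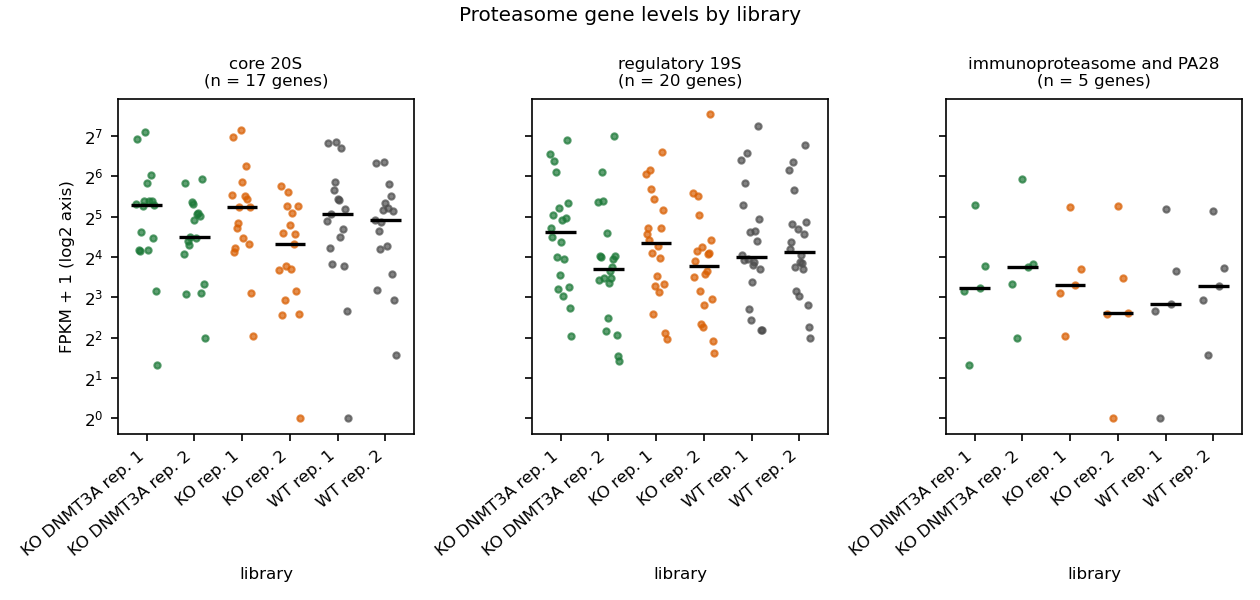
FPKM plus 1 on a log2 axis (y) in each library (x) for core 20S, regulatory 19S, and immunoproteasome and PA28 genes. Each point is a gene, green for KO DNMT3A, orange for KO and grey for WT, and the bar is the class median in FPKM plus 1, which is lower in replicate 2 than in replicate 1 of KO DNMT3A and of KO for 20S and 19S genes.

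Psmb5, Psmb1 and Psma2 show the pattern gene by gene. Psmb5, the chymotrypsin-like beta 5 subunit, was 64.6 and 32.9 FPKM in KO DNMT3A islets, 74.9 and 19.1 FPKM in KO islets, and 103 and 55.4 FPKM in WT islets. Psmb1, the beta 6 subunit, was 136 and 38.9 FPKM in KO DNMT3A islets, 141 and 48.2 FPKM in KO islets, and 114 and 80.3 FPKM in WT islets. The alpha ring gene Psma2 was 121 and 55.9 FPKM in KO DNMT3A islets, 125 and 52.9 FPKM in KO islets, and 113 and 79.4 FPKM in WT islets. For Psmb1 and Psma2 both WT values lay inside the range of each other group.

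On the log2(FPKM + 1) scale the median difference of replicate 1 minus replicate 2 over the 46 genes was 0.65 in KO DNMT3A and 0.73 in KO, with -0.07 in WT. Over all 13233 genes tested the same medians were 0.09, 0.21 and -0.38. Replicate 1 was higher for 36 of 46 proteasome genes in KO DNMT3A (54.1% of all genes tested), for 38 of 46 in KO (58.7%) and for 21 of 46 in WT (33.3%). Replicate 1 was higher in both KO DNMT3A and KO for 33 of 46 proteasome genes, including 11 of 17 of the core and 17 of 20 of the 19S particle, against 39% of all genes tested. The replicate numbers do not tie these libraries to a shared animal or day. KO DNMT3A replicate 2 and KO replicate 2 share the number that ends their column names, whose part was not tested.

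**Figure D2:**
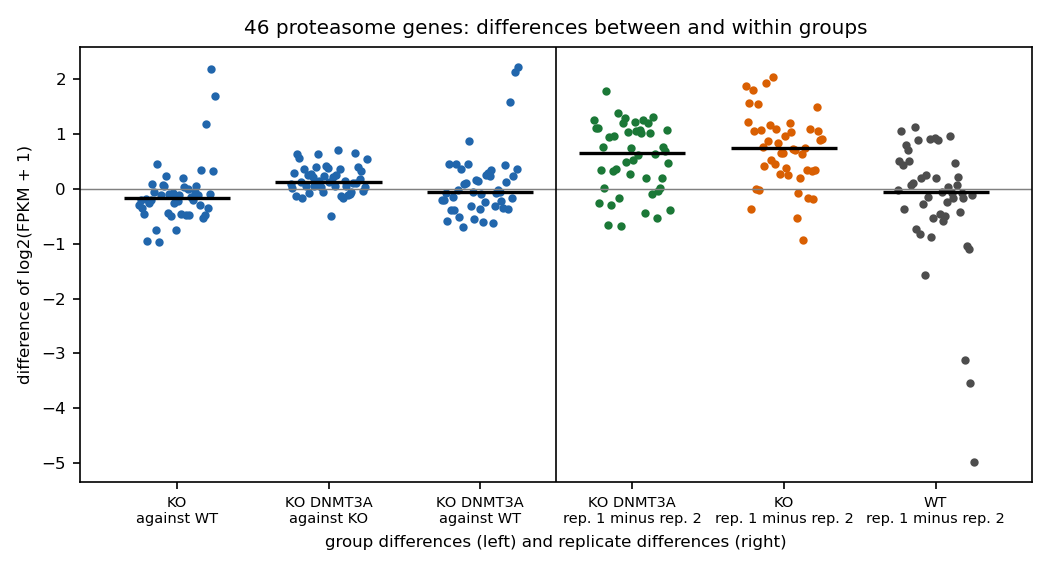
Differences of log2(FPKM + 1) for the 46 measured proteasome genes (points; bar, median), between groups on the left and between replicates of a group on the right. The medians are -0.17 for KO against WT, 0.13 for KO DNMT3A against KO and -0.06 for KO DNMT3A against WT, and 0.65 in KO DNMT3A, 0.73 in KO and -0.07 in WT for replicate 1 minus replicate 2.

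The share of the library taken by proteasome genes moved the same way, and the insulin-poor libraries lay apart in it. Together the 48 genes accounted for 0.289% and 0.177% of all FPKM in KO DNMT3A islets, 0.260% and 0.140% in KO, and 0.239% and 0.215% in WT. Of the summed FPKM without mitochondrially encoded genes, Ins1, Ins2, Iapp and transcripts that collect ribosomal RNA reads (Gm42418, Gm26917 and Lars2), the shares were 0.634% and 0.414%, 0.639% and 0.342%, and 0.603% and 0.526% in the same order. The insulin-poor WT replicate 1 was among the higher libraries and the insulin-poor KO replicate 2 was the lowest. The part of beta cell content was not tested. Inferred depth was also higher in replicate 1 than in replicate 2 of KO DNMT3A and of KO, and lower in replicate 1 of WT; its part in the result was not tested. The 6 duct markers summed to 1064 and 155 FPKM in KO DNMT3A islets, 240 and 91.4 FPKM in KO islets, and 2486 and 182 FPKM in WT islets, with none at 0. The 6 stroma markers summed to 324 and 137, 197 and 227, and 1031 and 184 FPKM, again with none at 0. Their part was not tested.

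**Figure D3:**
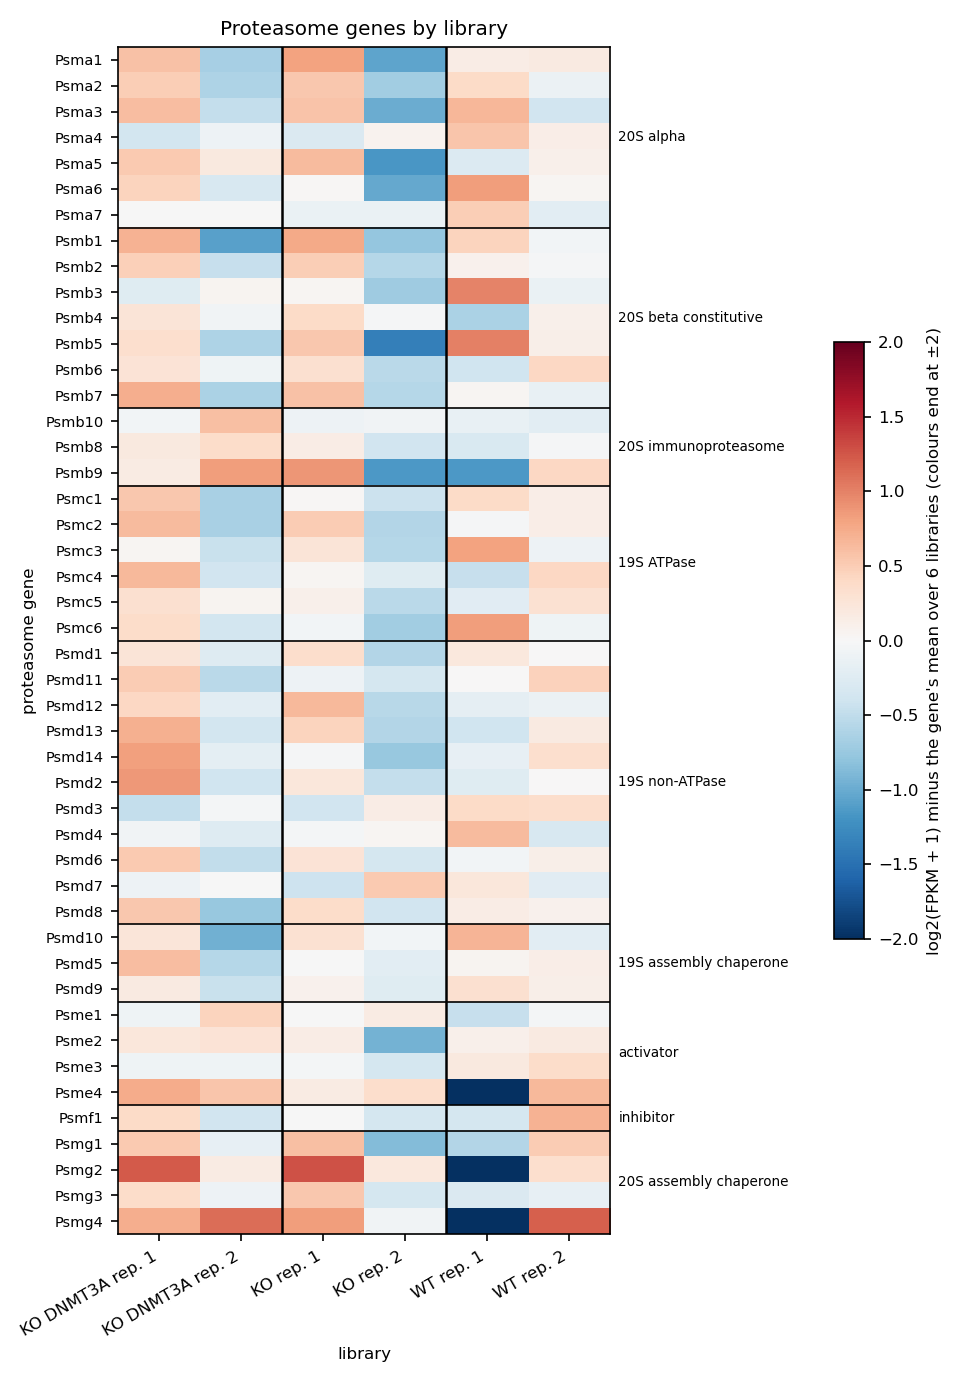
Each row is a measured proteasome gene, each column a library, and the colour is log2(FPKM + 1) minus that gene's mean over the 6 libraries (red high, blue low, colours end at ±2). Most 20S and 19S genes are red in replicate 1 and blue in replicate 2 of KO DNMT3A and KO, while Psme4, Psmg2 and Psmg4 are darkest in WT replicate 1, where they are listed at 0.

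Replicate 1 was lower in both KO DNMT3A and KO for 5 of the 46 genes (25% of all genes tested), named here after their values were seen: Psmd7, Psmd3, Psma4, Psmb10 and Psme1. Psmd7 was 119 and 127 FPKM in KO DNMT3A islets, 96.0 and 185 FPKM in KO islets, and 151 and 109 FPKM in WT islets, with KO replicate 2, the library with the lowest median of the core genes, at the top. Psma4, an alpha ring gene, was 16.6 and 20.1 FPKM in KO DNMT3A islets, 17.6 and 23 FPKM in KO islets, and 32.6 and 24.0 FPKM in WT islets. The 19S lid gene Psmd3 (Rpn3) was 7.15 and 10.1 FPKM in KO DNMT3A islets, 7.72 and 11.6 FPKM in KO islets, and 13.8 and 13.4 FPKM in WT islets. For both Psma4 and Psmd3 each WT library lay above all 4 other libraries.

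The first comparison set libraries labelled KO beside those labelled WT, by the labels a comparison of Raptor loss, which the Rptor values above do not show. No proteasome gene passed the test (0 of 46, limma with Benjamini-Hochberg adjustment over 13233 genes, adjusted p = 1 for each), where 0% of all genes tested passed. At an unadjusted p under 0.05 there were 0 of 46 proteasome genes and 1.81% of all genes (240). The mean log2 level was lower in KO for 33 of 46 genes, 12 of 17 in the core and 17 of 20 in the 19S particle, where 47.3% of all genes were lower. The median log2 fold change was -0.21 for the core and -0.18 for the 19S genes, against 0.03 over all genes. KO replicate 2 set this direction: without it the median of the core genes was 0.40, 10 of 20 genes of the 19S particle were higher in KO, and so were 29 of the 46 genes. The median was then 0.24 over the 46 genes and 0.16 over all genes. Without KO replicate 1 the core median was -0.78, and without both insulin-poor libraries it was 0.43. Over all genes these medians were -0.04 and -0.02.

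The lower genes with the smallest p were Psma6, Psmb5, Psmb3, Psmc6 and Psme3. Psma6, an alpha ring gene, was 27.6 and 12.8 FPKM in KO islets and 49.3 and 28.0 FPKM in WT islets, without overlap, with a log2 fold change of -0.95 (SE 0.65; limma adjusted p = 1). Psmb5 had a log2 fold change of -0.97 (SE 0.80) and overlapping groups. Psmb3 (beta 3) averaged 16.6 ± 6.42 FPKM in KO islets and 29.97 ± 16.3 FPKM in WT islets (SD, n = 2 each), and Psmc6, an ATPase gene, 41.3 ± 13.2 FPKM in KO islets and 71.6 ± 31.7 FPKM in WT islets. The spread within the WT group was as large as these differences. Psme3 was 4.55 and 3.46 FPKM in KO islets and 5.52 and 6.39 FPKM in WT islets, a small gap without overlap. Altogether 8 of 46 proteasome genes were lower without overlap (10.5% of all genes tested) and 2 of 46 were higher without overlap (9.36%).

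The higher genes with the smallest p in KO were Psmg2, Psme4, Psmg4, Psmb4 and Psme1. Psmg2, which encodes the alpha ring assembly chaperone PAC2, was 21.2 and 9.68 FPKM in KO islets, and was listed at 0 and at 10.7 FPKM in WT islets. Its relative Psmg4 (PAC4) was 23.6 and 12.1 FPKM in KO islets, and was listed at 0 and at 30.4 FPKM in WT islets. Psme4, the gene of the PA200 activator, was 5.28 and 6.16 FPKM in KO islets, and was listed at 0 and at 7.74 FPKM in WT islets. Each of these 3 differences rested on the 0 in WT replicate 1, the library of least depth: without it the log2 fold changes were 0.40 for Psmg2, -0.81 for Psmg4 and -0.38 for Psme4. In that library 3 fragments would be 9.43 FPKM for Psmg2, 22.1 FPKM for Psmg4 and 1.89 FPKM for Psme4, counting error only. This floor for a listed 0 was chosen by convention and is not a hard maximum. A difference between groups was thus not detectable at this depth for Psmg4, and the other WT library had more of it than either KO library. Psmb4 (beta 7) was 44.6 and 33.2 FPKM in KO islets and 21.5 and 36.3 FPKM in WT islets, with overlap.

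The second comparison, of libraries labelled KO DNMT3A with KO, is by the labels that of added Dnmt3a in Beta RapKO islets. Again no proteasome gene passed (0 of 46, limma adjusted p = 1 for each; 0% of all genes), and 0 of 46 had an unadjusted p under 0.05 (1.11% of all genes, 147). The mean log2 level was higher in KO DNMT3A for 35 of 46 genes, where 68.2% of all genes were higher. The median log2 fold change was 0.20 for the core and 0.09 for the 19S genes, against 0.19 over all genes. Dividing each library by its median removed that general shift, to a median of -0.002 over all genes, and then 17 of 46 proteasome genes were higher. By that scaling 8 of 17 core genes and 5 of 20 genes of the 19S particle were higher. Without KO replicate 2 only 19 of 46 were higher, with a median of -0.18 over the 46 genes and 0.07 over all genes.

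The members with the smallest p were Psmd14, Psme2, Psma5, Psma6 and Psmb8 on the higher side. Psmd14, the deubiquitinase gene, was 19.6 and 9.23 FPKM in KO DNMT3A islets and 10.5 and 5.95 FPKM in KO islets, overlapping, with a log2 fold change of 0.70 (SE 0.61; limma adjusted p = 1). Psma5, an alpha ring gene, was 23.7 and 18.6 FPKM in KO DNMT3A islets and 25.5 and 6.66 FPKM in KO islets, so a single KO library held it down; without that library its log2 fold change was -0.27. On the lower side were Psmd10, Psmd4, Psmd3, Psma4 and Psmb1. The largest of these was Psmd10, which encodes the 19S chaperone gankyrin, at 8.61 and 3.17 FPKM in KO DNMT3A islets and 9.11 and 6.81 FPKM in KO islets. The other 4 differed by less than 0.2 on the log2 scale. Groups did not overlap for 5 of 46 higher genes (17.2% of all genes tested) and 1 of 46 lower genes (5.43%).

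Libraries labelled KO DNMT3A were also set beside WT; any pair of the 3 comparisons shares the libraries of 1 group. No proteasome gene passed (0 of 46, smallest limma adjusted p = 0.997; 0% of all genes), and 0 of 46 had an unadjusted p under 0.05 (2.86% of all genes, 379). The mean was lower in KO DNMT3A for 26 of 46 genes, where 35.2% of all genes were lower. The median log2 fold change was -0.07 for the core and -0.09 for the 19S genes, against 0.23 over all genes. Under median scaling 13 of 46 were higher and 33 lower, and the median of all genes was 0.04. With KO DNMT3A replicate 1 left out 12 of 46 genes were higher, and with KO DNMT3A replicate 2 left out 35 of 46 were. The medians over all genes were then 0.21 and 0.29.

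Psmd3 and Psma4, described above, had the smallest p on the lower side, with log2 fold changes of -0.62 (SE 0.53) and -0.59 (SE 0.55; limma adjusted p = 0.997 for both), and Psmd10, Psmc3 and Psmb5 followed. Psmc3, an ATPase gene (Rpt5), was 21.6 and 15.2 FPKM in KO DNMT3A islets and 37.7 and 19.6 FPKM in WT islets. Psmg2, Psme4, Psmg4, Psmb9 and Psmb8 had the smallest p on the higher side, and the first 4 of these are listed at 0 in WT replicate 1. Without that library the log2 fold change was 0.36 for Psmg2, 0.01 for Psme4, -0.27 for Psmg4 and 0.09 for Psmb9. In this comparison 5 of 46 genes were higher without overlap (19.2% of all genes tested) and 3 of 46 were lower without overlap (7.87%).

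The immunoproteasome and PA28 genes ran against most other subunits between the replicates of KO DNMT3A, but not between those of KO. Between those of WT they ran against most alpha and constitutive beta genes. All 5 (Psmb8, Psmb9, Psmb10, Psme1 and Psme2) were lower in replicate 1 than in replicate 2 of KO DNMT3A, where 6 of 7 alpha genes, 6 of 7 constitutive beta genes and 18 of 20 genes of the 19S particle were higher in replicate 1, as were 54.1% of all genes tested. In KO 3 of the 5 were higher in replicate 1 (58.7% of all genes tested), with a median log2 difference of 0.53 beside 1.07 for the core and 0.64 for the 19S genes. In WT 1 of the 5 was higher in replicate 1 (33.3% of all genes tested), with a median of -0.28. There 5 of 7 alpha genes, 5 of 7 constitutive beta genes and 10 of 20 genes of the 19S particle were higher in replicate 1. The median level of the 5 was 8.32 and 12.5 FPKM in KO DNMT3A islets, 8.84 and 5.10 FPKM in KO islets, and 6.18 and 8.63 FPKM in WT islets. All 5 had a higher mean in KO DNMT3A than in KO (68.2% of all genes were higher) with a median log2 fold change of 0.40, but 4 of 5 under quantile normalization or median scaling. All 5 had a higher mean in KO DNMT3A than in WT (64.8% of all genes) with a median of 0.44, and again 4 of 5 under those scalings. These comparisons share the KO DNMT3A libraries. Between KO and WT the median was 0.09. None of the 5 passed the test in any comparison (limma adjusted p from 0.997 to 1).

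The immunoproteasome subunits replace beta 2, beta 5 and beta 1 in the core. Psmb10, the trypsin-like beta 2i subunit, was 37.7 and 59.9 FPKM in KO DNMT3A islets, 36.4 and 37.3 FPKM in KO islets, and 35.4 and 34.0 FPKM in WT islets. The other 5 libraries lay between 34.0 and 37.7 FPKM, and replicate 2 of KO DNMT3A stood alone above them. Psmb8, the chymotrypsin-like beta 5i subunit, was 7.98 and 9.07 FPKM in KO DNMT3A islets, 7.65 and 4.99 FPKM in KO islets, and 5.31 and 6.67 FPKM in WT islets, so both KO DNMT3A libraries lay above the other 4. The gap to KO replicate 1 was small, and the lowest values rest on few inferred fragments, 7.43 in KO replicate 2 and 2.48 in WT replicate 1. In that WT library 3 fragments of Psmb8 would be 6.43 FPKM. Psmb9, the beta 1i subunit, was 1.49 and 2.98 FPKM in KO DNMT3A islets, 3.12 FPKM and listed at 0 in KO, and listed at 0 and at 1.96 FPKM in WT islets. These values rest on at most 12.8 fragments, and 3 fragments would be 1.33 FPKM in the KO library at 0 and 4.25 FPKM in the WT one, so no difference in Psmb9 was detectable at this depth.

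The PA28 subunits form a ring that caps the core in place of the 19S particle. Psme1 (PA28 alpha) was 8.32 and 12.5 FPKM in KO DNMT3A islets, 8.84 and 10.1 FPKM in KO islets, and 6.18 and 8.63 FPKM in WT islets. Psme2 was 12.7 and 13.2 FPKM in KO DNMT3A islets, 12 and 5.10 FPKM in KO islets, and 11.6 and 12.3 FPKM in WT islets, where only KO replicate 2 was low. Psme2 has a near-identical copy, Psme2b on chromosome 11, whose transcript matched over 794 bases at 99.4% identity and averaged 82.1 FPKM against 11.1 FPKM for Psme2. Reads of this pair could be split by the authors' counting, so the level of Psme2 is uncertain. Psme2b was 98.9 and 110 FPKM in KO DNMT3A islets, 77.9 and 35.2 FPKM in KO islets, and 63.5 and 107 FPKM in WT islets.

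Within a library, the immunoproteasome form was the minor transcript for 2 of the 3 catalytic sites and the major one for the third. Psmb8 made up 11.0% and 21.6% of the sum of Psmb8 and Psmb5 in KO DNMT3A, 9.27% and 20.7% in KO, and 4.89% and 10.7% in WT. The 4.89% rests on 2.48 inferred fragments of Psmb8. Psmb9 made up 3.52% and 8.67% of its sum with Psmb6, the caspase-like beta 1 subunit, in KO DNMT3A, 6.91% and 0% in KO, and 0% and 4.17% in WT. Psmb10 made up 64.2% and 88.8% of its sum with Psmb7, the constitutive beta 2 subunit, in KO DNMT3A, 65.8% and 82.5% in KO, and 73.7% and 75.6% in WT. In all 6 libraries Psmb10 exceeded Psmb7, which was 21.1 and 7.54 FPKM in KO DNMT3A islets, 18.9 and 7.92 FPKM in KO islets, and 12.6 and 11.0 FPKM in WT islets. Shares within a library do not depend on how that library was scaled. They do depend on the transcript lengths behind the FPKM, which are not given in the sources used here. The longest annotated transcript has 1311 bases for Psmb10 and 2849 for Psmb7.

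**Figure D4:**
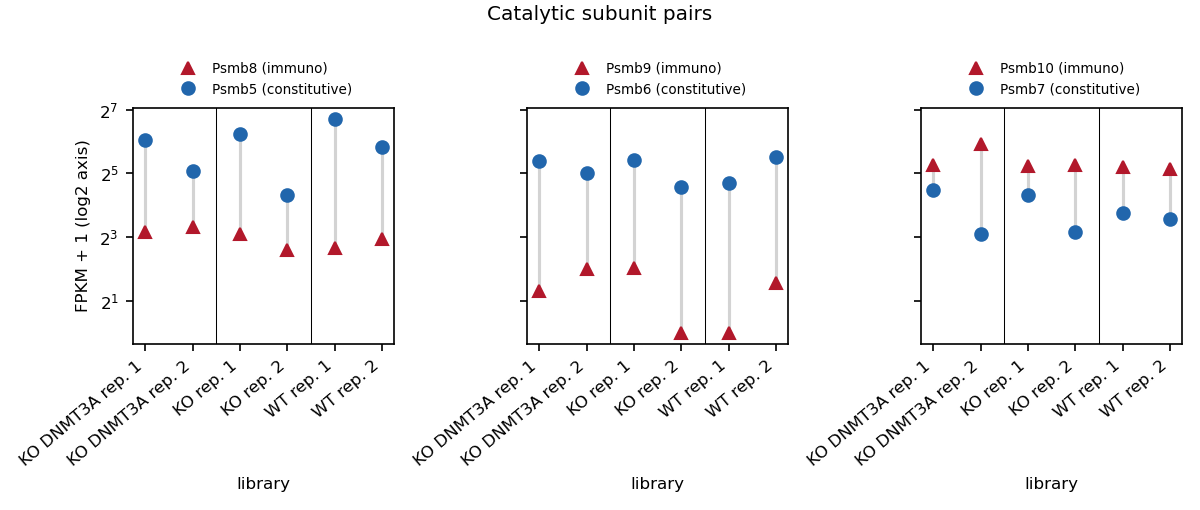
FPKM plus 1 on a log2 axis (y) in each library (x) for the 3 catalytic sites, immunoproteasome subunit as red triangles and constitutive subunit as blue circles joined by a grey line. Psmb10 lies above Psmb7 in all 6 libraries, while Psmb8 and Psmb9 lie below Psmb5 and Psmb6.

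Averaged over the 3 pairs, the log2 ratio of immunoproteasome to constitutive subunit on the FPKM + 1 scale was -2.04 and -0.65 in KO DNMT3A, -1.87 and -1.40 in KO, and -2.44 and -1.76 in WT. The group means were -1.34 in KO DNMT3A, -1.64 in KO and -2.10 in WT, and the SD between replicates pooled over groups was 0.66. The difference of KO DNMT3A from KO was 0.29 and that from WT was 0.76, and both rested on KO DNMT3A replicate 2: without it they were -0.41 and 0.06. They also moved with the pseudocount, to 0.75 and 1.26 at 0.1 in place of 1. The average includes Psmb9, which is listed at 0 in a KO and a WT library. It also includes Psmb8, which rests on 2.48 inferred fragments in WT replicate 1. Without the Psmb9 pair, an alternative chosen after seeing the data, the differences were 0.22 and 0.75. The 12 macrophage markers, genes of a cell type that carries immunoproteasomes, summed to 287 and 175 FPKM in KO DNMT3A islets, 562 and 345 FPKM in KO islets, and 651 and 544 FPKM in WT islets. None of the 12 was at 0 in any library, and their sum was lowest in KO DNMT3A replicate 2, where the ratio was highest. Their part in the result was not tested.

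Genes that act with the proteasome were read from 3 lists. Of 34 ubiquitin-proteasome partners 32 were in the table and 31 were measured, and 0 of 31 passed the limma test in each comparison. In KO against WT 14 of 31 had a higher mean (52.4% of all genes), in KO DNMT3A against KO 19 of 31 (68.2%), and in KO DNMT3A against WT 21 of 31 (64.8%). Medians were -0.05, 0.29 and 0.14 on the log2 scale, against 0.03, 0.19 and 0.23 over all genes. Akirin2, a factor for nuclear import of proteasomes, had the smallest p among them, at 9.02 and 10.6 FPKM in KO islets, and was listed at 0 and at 8.96 FPKM in WT islets. The 0 is in WT replicate 1, the library of least depth, and the other WT value lay close to the lower KO value. Sem1, a small subunit of the 19S lid outside the naming rule, was 19.97 and 10.3 FPKM in KO islets and 34.0 and 22.9 FPKM in WT islets, without overlap, with a log2 fold change of -0.91 (SE 0.59; limma adjusted p = 1).

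Nfe2l1 and Nfe2l2 encode known regulators of proteasome genes. Nfe2l1, whose product raises proteasome gene transcription when proteasomes fail, was 6.38 and 11.0 FPKM in KO DNMT3A islets, 10.6 and 10.4 FPKM in KO islets, and 6.53 and 7.73 FPKM in WT islets. Both KO values lay above both WT values. Nfe2l2, the antioxidant regulator NRF2, was 22.2 and 5.70 FPKM in KO DNMT3A islets, 12.7 and 10.1 FPKM in KO islets, and 28.1 and 7.59 FPKM in WT islets, higher in replicate 1 of every group. The part of either gene in the differences between libraries was not tested.

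Of 14 genes of MHC class I peptide loading, which receives proteasome products, 12 were measured, and 0 of 12 passed in any comparison. Means were higher in KO DNMT3A than in WT for 10 of 12 genes (64.8% of all genes) in KO DNMT3A than in KO for 9 of 12 (68.2%), and in KO than in WT for 6 of 12 (52.4%). Tapbp, the peptide editor tapasin, was 103 and 40.5 FPKM in KO DNMT3A islets, 67.9 and 20.7 FPKM in KO islets, and 14.8 and 38.8 FPKM in WT islets. Erap1, the peptidase that trims proteasome products in the endoplasmic reticulum, was 20.8 and 14.3 FPKM in KO DNMT3A islets, 15.7 and 5.43 FPKM in KO islets, and 2.04 and 14.1 FPKM in WT islets. Both genes were higher in replicate 1 than in replicate 2 of KO DNMT3A, unlike Psmb10. All 16 interferon signalling genes were measured and 0 of 16 passed. Their means were higher in KO DNMT3A than in WT for 11 of 16 in KO DNMT3A than in KO for 13 of 16, and in KO than in WT for 10 of 16. At an unadjusted p under 0.05 there were 0 genes of the 3 lists in any comparison by limma. Stat2, a signal transducer of type I interferon, was 6.62 and 11.6 FPKM in KO DNMT3A islets, 2.82 and 6.29 FPKM in KO islets, and listed at 0 and at 5.73 FPKM in WT islets. Its 0 is also in WT replicate 1, the library of least depth. Irf1, an activator of immunoproteasome genes named after its values were seen, was 7.22 and 8.07 FPKM in KO DNMT3A islets, 7.30 and 4.44 FPKM in KO islets, and 4.96 and 6.23 FPKM in WT islets. The 16 genes summed to 58.4 and 73.4 FPKM in KO DNMT3A islets, 64.9 and 40.7 FPKM in KO islets, and 35.7 and 65.7 FPKM in WT islets, so no pair of groups was apart.

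Some levels are uncertain because similar or overlapping genes could share reads. Transcripts of 9 of the 48 genes matched another gene over at least 200 bases at 95% identity or more, among them Psmb5 and Psma4, and most of the 17 copies are processed pseudogenes. Copies of 6 were measured: besides Psme2b they were Gm8394 for Psma5 (11.9 FPKM on average), Gm4950 for Psmb3 (15.1 FPKM), Gm5422 for Psmd2 (3.69 FPKM), A730017L22Rik for Psmd11 (3.07 FPKM) and Gm609 for Psma3 (0.854 FPKM). Of the 48 loci 22 overlap another annotated gene, and whether the counting used strand is not given in the sources used here. In 5 cases the overlapping gene, on the opposite strand, averaged over 25% of the level of the proteasome gene: 3110056K07Rik at Psma3, Tap1 at Psmb9, Slc39a13 at Psmc3, Sirt3 at Psmd13 and Emc9 at Psme1.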

How the data were processed

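RNA of isolated islets was sequenced as poly-A libraries, 2 per group, per the labels' protocols. Values were deposited as FPKM, per the file headers. The genome mm10 and the tools StringTie 1.3.0, HISAT2 2.0.4 and edgeR appear without role or order, per the submitters' processing notes; the annotation used for counting is not given in the sources used here. Symbols and overlaps came from GENCODE M21 on GRCm38. FPKM carry no counts, so depth was inferred from the smallest steps of single-transcript genes, and 84.3% to 91.4% of their low values came out whole within 0.01 fragments. Because gene lengths of the other genes are assumed, no count test was run. Floors and inferred fragments cover counting error only.

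Genes reaching 1 FPKM in 2 or more libraries, 13233 in all, were tested on log2(FPKM + 1), a scale that understates fold changes of low genes, with limma 3.58.1 (R 4.3.3; trended, robust, two-sided, 3 groups in 1 fit) and Benjamini-Hochberg adjustment over all of them at a threshold of 0.05. The procedure was tested on simulated data with independent errors, which hold no shift shared by the genes of a library. Lists were described by counts and medians. Near copies came from BLAST 2.17.0. The named genes are the catalytic and PA28 genes, the highest and lowest member of each class, members under the filter, and per comparison the 5 with the smallest p in each direction, with the leading genes of each list. Alternatives were the pseudocount, the filter, 3 scalings, the spread model, the groups fitted, a replicate block and left-out libraries. The members and lists were chosen with earlier results of these data known.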

Additional observations from a re-analysis of the deposited data

How the results depend on the processing

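No proteasome gene was called in any comparison under any alternative, including the replicate block. With the replicate number as a block 0 proteasome genes and 0 genes in all were called in each comparison. The block could not change a median, because each group has 1 library of each number. The labels do not pair the libraries by replicate number. Over 13233 genes, differences between replicates correlated at -0.27 for KO and WT and at 0.32 for KO DNMT3A and KO. For KO DNMT3A and WT the correlation was 0.10. A crossed pairing of KO and WT, chosen after seeing the data, called 0 genes. It put the libraries that share a column ending in the same block. Class medians and catalytic ratios kept within the spread between replicates under each alternative that kept all 6 libraries. For core and 19S genes this spread (SD 0.52 and 0.40) is wider than every main median, so a change of sign still counted as kept. In KO DNMT3A against KO median scaling moved the core median from 0.20 to -0.05 and the 19S median from 0.09 to -0.16. With 1 library left out, where the lone library is assumed to vary like the other groups, the KO against WT median ran from -0.78 to 0.40 for core genes and from -0.21 to 0.24 for immunoproteasome and PA28 genes. For KO DNMT3A against KO it ran from -0.29 to 0.63 for core genes and from -0.29 to 0.55 for 19S genes. It ran from 0.14 to 0.68 for immunoproteasome and PA28 genes, and the catalytic ratio from -0.41 to 0.99. For KO DNMT3A against WT it ran from -0.45 to 0.37 for core genes and from -0.47 to 0.28 for 19S genes. It ran from 0.16 to 0.70 for immunoproteasome and PA28 genes, and the ratio from 0.061 to 1.46. Single genes that changed sign ran over these ranges: in KO against WT Psme4 from -0.38 to 2.75 and Psmg4 from -0.81 to 4.17; in KO DNMT3A against KO Psma5 from -0.27 to 1.52, Psmd10 from -1.09 to 0.11, Psmd3 from -0.41 to 0.12, Psma4 from -0.31 to 0.055 and Psmb1 from -1.07 to 0.71; in KO DNMT3A against WT Psmg4 from -0.27 to 4.71 and Psmd10 from -1.20 to 0.00048. Without both insulin-poor libraries, a fit whose spread rests on KO DNMT3A alone, the core median of KO against WT was 0.43, with Psmb5 at 0.43, Psmb3 at 0.18, Psmc6 at 0.040, Psme4 at -0.48 and Psmg4 at -0.35. In KO DNMT3A against KO it gave Psma5 -0.27, Psmd3 0.12 and Psma4 0.055, and in KO DNMT3A against WT Psmg4 -0.27. The causes were not tested. Under a filter of 5 FPKM 41 of the genes were tested, and Psmb9 gave no value. Quantile normalization and median scaling moved the members higher in KO DNMT3A against KO to 18 and 17 of 46, and in KO DNMT3A against WT to 17 and 13 of 46, against 20. Depth limits the low genes most: in WT replicate 1 a fragment on 1 kb of transcript is 4.09 FPKM.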

Other observations

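Ubb, 1 of the polyubiquitin genes that supply the tag read by the 19S particle, varied more between libraries than any other partner gene named here. It was 252 and 0.375 FPKM in KO DNMT3A islets, 6.75 and 73.5 FPKM in KO islets, and 99.2 and 169 FPKM in WT islets. The KO DNMT3A libraries held both the highest and the lowest value, and both KO libraries lay below both WT libraries. Usp18, a gene of the interferon signalling list, was 6.34 and 7.79 FPKM in KO DNMT3A islets, 9.97 and 4.09 FPKM in KO islets, and 2.37 and 3.58 FPKM in WT islets, so every KO DNMT3A and KO value lay above both WT values. Its log2 fold change was 1.03 (SE 0.58; limma adjusted p = 0.997) for KO DNMT3A against WT and 0.93 (SE 0.58; limma adjusted p = 1) for KO against WT, comparisons that share the WT libraries. The lower WT value of Usp18 is from WT replicate 1, the library of least depth, where a fragment on 1 kb of transcript is 4.09 FPKM. Of all genes tested, 19.2% were higher without overlap in KO DNMT3A than in WT and 9.36% in KO than in WT. Ecpas, which encodes a proteasome-binding scaffold, was 5.85 and 8.12 FPKM in KO DNMT3A islets, 4.02 and 5.34 FPKM in KO islets, and 3.04 and 4.51 FPKM in WT islets. Tap2, a subunit of the peptide transporter that feeds MHC class I, was 12.8 and 8.01 FPKM in KO DNMT3A islets, 7.85 and 3.11 FPKM in KO islets, and 6.10 and 6.71 FPKM in WT islets, with both KO DNMT3A libraries above the other 4. In KO DNMT3A 17.2% of all genes tested were higher without overlap than in KO, and 19.2% than in WT.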
